A study of Mus musculus with 27 samples.

Results

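The arrays compared are 4 controls, 2 of the mouse embryonic stem (ES) cell line WD44 and 2 of the mouse ES cell line E14, out of 27 arrays in the study. They were chosen by their titles alone, which name the line and a control RNAi with a replicate number. The 2 WD44 arrays came from a male line made from BL6 blastocysts. The 2 E14 arrays came from a male line described as a Cast/BL6 hybrid, from a BL6 mother and a Cast father. A widely used ES line of the name E14 comes from 129 mice, and the origin of the line used here is taken from its label and was not checked against its genome. Neither line carried a named mutation. Both were grown with leukemia inhibitory factor (LIF) on mouse embryonic fibroblast (MEF) feeders, which were depleted on gelatin before transfection. All 4 samples received 1 round of RNAi with 100 pmol of a negative control siRNA from Invitrogen by Lipofectamine RNAiMax and were harvested after 48 h. The study used these arrays as controls for siRNAs against MOF (Kat8), a histone acetyltransferase. Each strain background is represented by 1 line, and the replicates are RNAi experiments within it, so the line, its strain background and its set of normalization cannot be told apart.

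Mouse ES cells are taken from the inner cell mass of the blastocyst and keep a naive state that depends on LIF signalling and on a circuit of transcription factors around Pou5f1 (Oct4), Sox2 and Nanog. Cells that leave this state pass through a formative and primed state like that of the epiblast after implantation, which is marked by Fgf5, Otx2, Pou3f1 and the de novo DNA methyltransferases. Lines from different strains are known to differ in how firmly they hold the naive state. Imprinted genes, which are read mainly from the maternal or the paternal copy, are known to vary between ES lines and cultures.

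The deposited log2 values had medians of 7.89 and 7.90 on the WD44 arrays, against 6.78 and 6.76 on the E14 arrays. The 4 arrays were therefore quantile-normalized together, after which the median of each was 7.33, with 10 in 100 probesets below 4.58 and 10 in 100 above 11.05. All levels below are on that log2 scale, and a level says nothing about 1 gene relative to another. Arrays of a line correlated at 0.996 within WD44 and 0.996 within E14 across probesets, and at 0.961 to 0.965 between the lines. Of 18041 probesets tested with limma, 5896 were higher and 5687 lower in WD44 at a Benjamini-Hochberg adjusted p under 0.05, or 64.2% in all. The split of these calls rests on the scaling. Higher calls were 50.9% of all calls after quantile normalization, 96.3% on the deposited values with no common scale and 33.9% after median centring, where the median difference over all probesets was 0.01, 0.96 and -0.17. A further limit of a 2-fold difference left 1857 probesets, or 10.3%, of which 1041 were higher and 816 lower in WD44. Because so many probesets were called, members are counted mainly at 2-fold or more. That limit does not remove the dependence on scaling. Probesets past 2-fold were 843 higher and 1545 lower after median centring, and 8517 higher and 117 lower on the deposited values.

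In all, 16 lists of autosomal genes were described, with 497 symbols between them, a few of which are older names of other entries. Of these, 407 were tested, 60 had no probeset annotated to that symbol alone, 26 had a mean below 6 and 4 were not autosomal. Among the 407, 198 were called higher and 100 lower in WD44, and 109 were not called. Over all 14967 autosomal genes tested, 33.8% were called higher and 31% lower (64.8% in all), with a median difference of 0.02. At 2-fold or more, 79 of the 407 members were higher and 25 lower. Of all 14967 autosomal genes, 892 (5.96%) were higher and 628 (4.2%) lower. The lists were chosen with earlier results of these data known, so these counts are a description and no test of enrichment. On every one of these 104 members the WD44 arrays did not overlap the E14 arrays. Choosing genes by call and by a 2-fold difference makes that likely for any gene. Members that were not called, such as Blcap and Cdh1, did not overlap either, and the share over all genes was not counted.

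**Figure D1:**
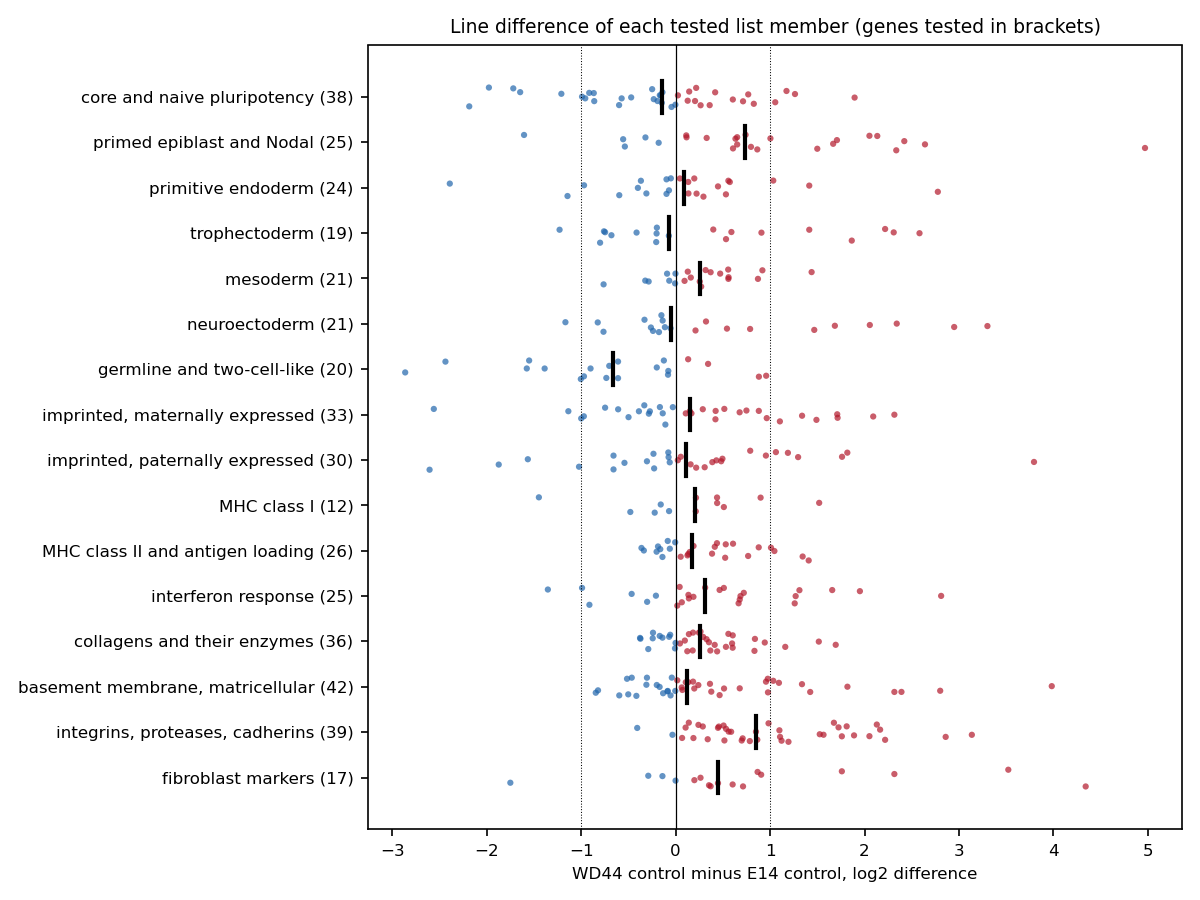
Line difference of every tested member of the 16 lists, as WD44 minus E14 on the log2 scale (x axis), with the number of genes tested in brackets; each point is a gene (red higher in WD44, blue lower in WD44), black bars are list medians and dotted lines mark a 2-fold difference. The medians of the primed epiblast list (0.74) and of the integrin, protease and cadherin list (0.85) lie farthest to the right, and that of the germline list (-0.66) farthest to the left.

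The label of ES cells was checked first. All 10 ES cell markers lay above the array median on all 4 arrays, with summed linear levels of 52159 and 50248 in WD44 and 57069 and 57429 in E14. Of 17 fibroblast markers tested, which could report leftover feeders, 9 lay above the array median on both WD44 arrays and 7 on both E14 arrays. Their summed linear levels were 14688 and 15262 in WD44, against 8926 and 9267 in E14. Much of that gap comes from the bright genes Tagln and Acta2. Of the 17 markers, 12 were called higher and 2 lower in WD44. Col3a1 and Col6a1 were not called, and Pdgfrb was lower. Of 8 primitive endoderm markers tested, 4 lay above the median in WD44 and 4 in E14, with summed linear levels of 1541 and 1617 in WD44, against 2250 and 2183 in E14. Of 8 trophectoderm markers tested, 7 lay above the median in WD44 and 7 in E14. Their summed linear levels were 11793 and 11367 in WD44, against 4231 and 4191 in E14. Most of that gap comes from the bright keratin genes Krt8 and Krt18, while Krt7 and Cdx2 were not higher in WD44.

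Some naive pluripotency factors were lower and others higher in WD44, while Pou5f1 and Sox2 were not called. Over all autosomal genes, 33.8% were called higher and 31% lower, with 5.96% and 4.2% at 2-fold or more. Of 38 core and naive pluripotency genes tested, 13 were called higher and 16 lower in WD44, with a median of -0.14. At 2-fold or more, 4 were higher (10.5%) and 5 lower (13.2%). The last counts were 10 and 3 on the deposited values and 1 and 11 after median centring. The 5 that fell by 2-fold or more were Tbx3, Prdm14, Tfcp2l1, Zfp42 and Tet2. The 4 that rose were Spry4, Mycn, Dppa4 and Dppa3.

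Pou5f1, the POU factor that defines the pluripotent state, was at 12.61 and 12.5 in WD44, against 12.55 and 12.64 in E14. Its partner Sox2 was at 12.35 and 12.27 in WD44, against 12.54 and 12.39 in E14. The arrays of the lines overlapped for Pou5f1 and lay within 0.3 of each other for Sox2, and neither was called (differences of -0.04 and -0.16, limma, adjusted p = 0.647 and 0.12). On the deposited values, with no common scale, both differences were positive, at 0.62 and 0.48, and after median centring both were called lower, at -0.51 and -0.64. Nanog was at 12.25 and 12.18 in WD44, against 13.03 and 13.14 in E14. Both WD44 arrays lay below both E14 arrays, with a difference of -0.87 ± 0.07 (SE, n = 2 each; limma, adjusted p = 4.42e-05). Esrrb, a nuclear receptor of the naive circuit, and Klf4, a Krüppel-like factor under LIF control, differed by -0.60 (adjusted p = 0.00134, and 0.0736 or 0.0724 with either E14 array left out) and -0.57 (adjusted p = 0.000624). The signs of these last values turned on the deposited scale, where they were 0.07 and 0.18.

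Larger differences lay in ancillary naive factors. Tbx3, a T-box factor that sustains the naive state, was at 9.38 and 9.23 in WD44, against 11.52 and 11.46 in E14. All WD44 values lay more than 2 log2 units below the E14 values, a difference of -2.18 ± 0.08 (SE), or 4.54-fold lower in WD44 (limma, adjusted p = 9.28e-07). Prdm14, which represses Fgf signalling and de novo methylation in naive cells, was at 7.82 and 7.76 in WD44, against 9.70 and 9.82 in E14. The WD44 values stood close to the array median and the E14 values clearly above it (difference -1.98 ± 0.08, adjusted p = 1.09e-06). Tfcp2l1, a Grainyhead-family factor downstream of LIF, was at 11.28 and 11.19 in WD44, against 12.98 and 12.94 in E14. Zfp42 (Rex1), a zinc finger marker of naive cells, was at 9.11 and 9.12 in WD44, against 10.79 and 10.72 in E14. Neither gene's arrays overlapped between the lines, and the differences were -1.72 ± 0.07 (adjusted p = 1.63e-06) and -1.65 ± 0.07 (adjusted p = 1.66e-06). Tet2, which oxidises 5-methylcytosine, differed by -1.21, and the Krüppel-like factor Klf2 by -0.99, just short of 2-fold.

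Among the genes that were higher, Spry4, a feedback inhibitor of Fgf and Erk signalling, was at 11.63 and 11.5 in WD44, against 9.59 and 9.74 in E14. Its difference was 1.90 ± 0.09 (SE; limma, adjusted p = 2.32e-06), with no overlap between the lines. Mycn, a Myc family factor, was 1.26 higher. Dppa3 (Stella), which protects maternal methylation in the zygote, and the chromatin protein Dppa4 were 1.05 and 1.17 higher on their brightest probesets. Each has 2 probesets, and the other one differed by only 0.38 for Dppa3 and 0.76 for Dppa4. With the mean over a gene's probesets, 2 genes of the list, not 4, were higher by 2-fold or more. The surface protein and Nodal co-receptor Tdgf1 was 0.61 higher and the chromatin protein Utf1 0.77 higher, both called but under 2-fold. The small RNA-binding protein Dppa5a (difference 0.03) and the zinc finger factor Sall4 (0.13) were not called.

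Genes of the primed epiblast were higher in WD44 as a list. Of 25 tested, 18 were called higher and 4 lower, and 10 were higher and 1 lower at 2-fold or more, that is 40.0% and 4.0% of the list. The median difference was 0.74.

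Car4, a membrane-bound carbonic anhydrase, was at 11.85 and 12.15 in WD44, against 7.04 and 7.02 in E14. The E14 values were below the array median of 7.33 and the WD44 values at percentile 95.3 of it. The difference was 4.97 ± 0.10 (SE), or 31.3-fold (limma, adjusted p = 1.7e-07). Pou3f1 (Oct6), a POU factor of the epiblast and early neural tissue, was at 10.59 and 10.62 in WD44, against 7.94 and 7.98 in E14. Otx2, a homeobox factor that drives the exit from the naive state, was at 10.29 and 10.62 in WD44, against 8.06 and 8.01 in E14. The lines did not overlap for either gene, with differences of 2.64 ± 0.07 (adjusted p = 2.99e-07) and 2.42 ± 0.11 (adjusted p = 2.33e-06). Fgf5, the classic ligand marker of the primed epiblast, was at 8.94 and 9.41 in WD44, against 6.90 and 6.78 in E14. It differed by 2.34 ± 0.14 (adjusted p = 9.02e-06), with the lower WD44 array still about 2 log2 units above both E14 arrays.

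Members of the de novo DNA methylation machinery differed in size. Dnmt3b, a de novo methyltransferase, was at 11.96 and 12.03 in WD44, against 9.86 and 9.85 in E14. Dnmt3l, its catalytically inactive cofactor, was at 12.35 and 12.32 in WD44, against 10.55 and 10.78 in E14. The lines stood apart on all arrays for both, by 2.13 ± 0.07 (adjusted p = 6.42e-07) and 1.67 (adjusted p = 5.19e-06). Dnmt3a, the other de novo methyltransferase, was called higher by 0.63, under 2-fold. Cdh2 (N-cadherin), an adhesion molecule that takes the place of E-cadherin in mesenchymal transitions, was at 9.97 and 9.94 in WD44, against 7.93 and 7.88 in E14 (difference 2.05). The zinc finger factor Sall2 (1.71), the ligand Wnt3 (1.5) and the inhibitor of bHLH factors Id3 (1.0) made up the rest of those that rose by 2-fold or more. The Fgf-responsive Ets factors Etv5 and Etv4 were called at 0.74 and 0.65, and the ligand Nodal at 0.80.

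The antagonists of Nodal went the other way. Lefty2 was at 8.82 and 9.04 in WD44, against 10.52 and 10.55 in E14, and was the only list member lower by 2-fold or more (difference -1.60, adjusted p = 5.02e-06). Lefty1 was at 9.42 and 9.70 in WD44, against 10.14 and 10.06 in E14, with a difference of -0.54 (adjusted p = 0.00252). For both genes the E14 arrays were the high ones and did not overlap the WD44 arrays.

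**Figure D2:**
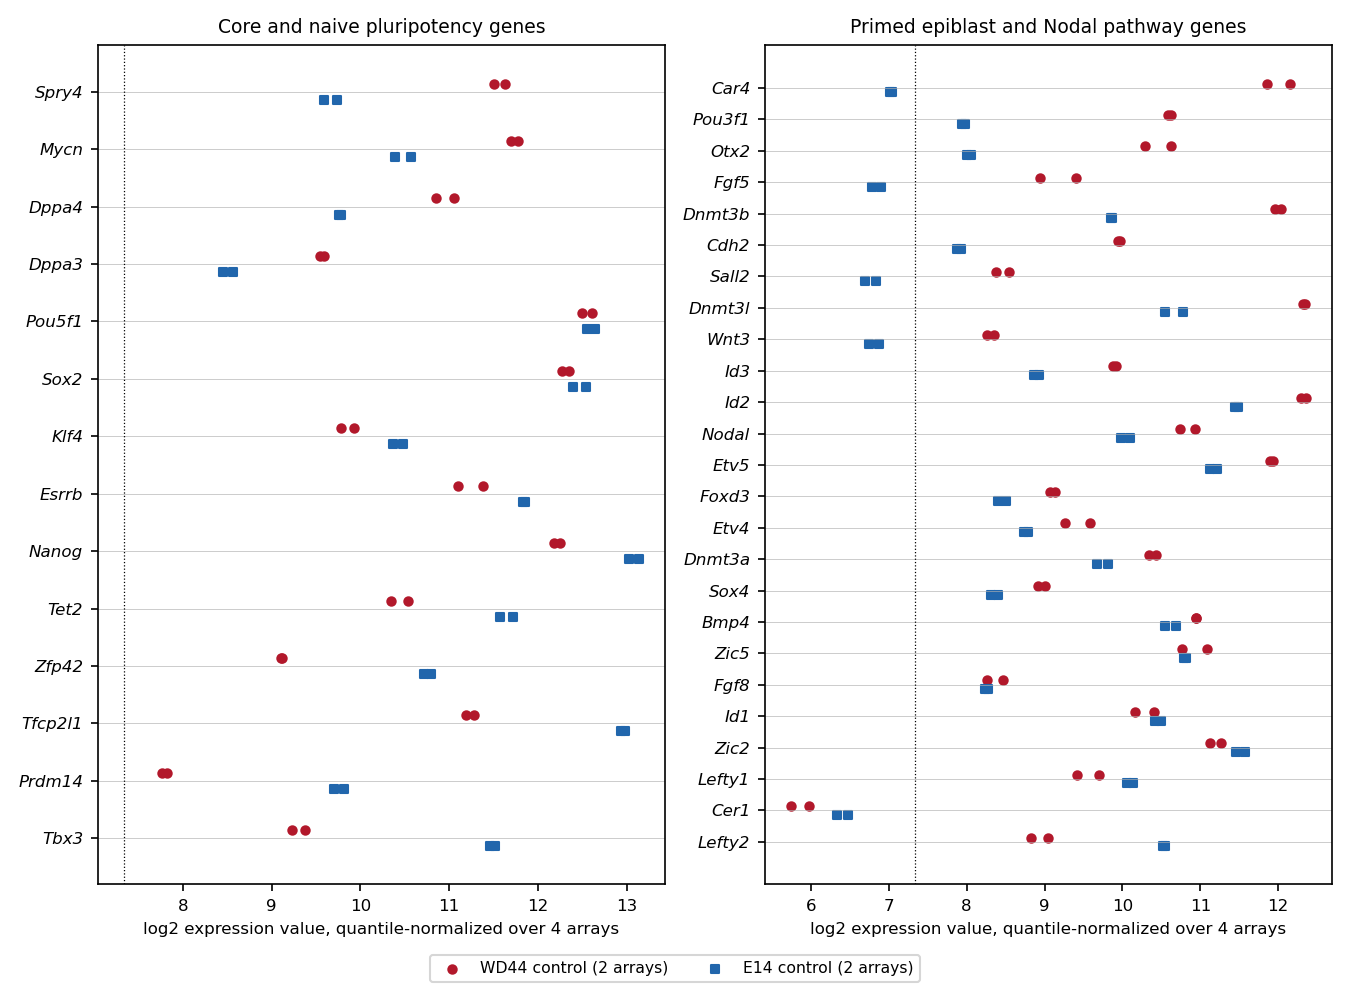
Level of each gene on each of the 4 control arrays (x axis, log2 value after joint quantile normalization; red circles WD44, blue squares E14; dotted line, array median of 7.33). Left, the core and naive genes named in the text that were checked always or differed by 2-fold or more; right, all 25 primed epiblast and Nodal pathway genes tested, both ordered by their difference. Pou5f1 and Sox2 points lie together, Tbx3 and Prdm14 stand about 2 units lower in WD44, and Car4 stands 4.97 higher in WD44.

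Lineage genes were mixed. Over all autosomal genes, 33.8% were called higher and 31% lower, with 5.96% and 4.2% at 2-fold or more. Of 24 primitive endoderm genes, 8 were called higher and 7 lower in WD44 (median 0.09), which is near the shares over all genes. At 2-fold or more, 3 were higher (12.5%) and 2 lower (8.33%). Lrp2 (megalin), an endocytic receptor of visceral endoderm, was at 10.96 and 11.01 in WD44, against 8.26 and 8.16 in E14. It was 6.85-fold higher in WD44 without overlap (adjusted p = 2.99e-07). Fgfr2, the Fgf receptor of extraembryonic cells (1.42), and the laminin chain Lamb1 (1.03) were also higher. The proteoglycan Srgn was at 7.19 and 7.24 in WD44, against 9.62 and 9.59 in E14 (difference -2.39, adjusted p = 4.44e-07). Hnf4a, a nuclear receptor of visceral endoderm, was lower by 2-fold or more (difference -1.14), and the endocytic adaptor Dab2 was lower at -0.97. The lineage-defining factors Gata4 (0.13, not called), Gata6 (0.29) and Sox17 (-0.37) differed by under 0.4.

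In the trophectoderm list Krt8, Krt18 and Krt19 were higher and the factor Gata2 was lower. Of 19 genes tested, 9 were called higher and 7 lower (5 and 1 at 2-fold or more, median -0.07). Krt18 was at 11.83 and 11.74 in WD44, against 9.30 and 9.11 in E14. Its partner Krt8, with which it forms the filaments of simple epithelia, was at 12.5 and 12.46 in WD44, against a mean of 10.17 over the 2 E14 arrays. All WD44 arrays were above all E14 arrays, by 2.58 ± 0.09 (adjusted p = 7.3e-07) and 2.31 ± 0.08 (adjusted p = 7.26e-07). Krt19 (1.86) and the P-cadherin gene Cdh3 (2.22) were higher too. Another keratin of the list, Krt7, was at 8.94 and 8.74 in WD44, against 9.12 and 8.96 in E14, and was not called (difference -0.20, adjusted p = 0.0975). Gata2 was lower by 2-fold or more (-1.23), and Cdx2, the master factor of the lineage, differed by -0.20 (adjusted p = 0.0447).

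Neural genes gave some of the larger differences of the lineage lists. Of 21 tested, 9 were called higher and 6 lower (6 and 1 at 2-fold or more), and the median was -0.05. Neurod1, a bHLH factor of neuronal differentiation, was at 9.32 and 9.44 in WD44, against 6.10 and 6.05 in E14. That difference was 3.30 ± 0.07 (SE), or 9.86-fold (limma, adjusted p = 1.99e-07), with the E14 values between the lower quartile and the median of the array. Fabp7, a fatty acid binding protein of radial glia, was at 7.65 and 8.01 in WD44, against 4.91 and 4.84 in E14 (difference 2.95). Olig2, a bHLH factor of oligodendrocyte and motor neuron progenitors, was at 10.06 and 10.19 in WD44, against 7.80 and 7.77 in E14 (difference 2.34). The lines did not overlap for any of them. The intermediate filament gene Nes (2.06), the eye and forebrain factor Pax6 (1.69) and the SoxC factor Sox11 (1.47) were also higher, while the homeobox gene Meis2 was lower (-1.17). Sox1, the earliest neural-specific Sox factor, was at 8.11 and 8.23 in WD44, against 8.31 and 8.26 in E14, and was not called. In the mesoderm list, with 10 of 21 genes called higher and 3 lower, only the heart factor Tbx20 passed 2-fold (1.44). That was 4.76% of the list, against 5.96% of all autosomal genes higher by 2-fold or more. Foxf1 (0.92), the Vegf receptor Kdr (0.87), Msx1 (0.56) and Twist1 (0.56) were higher, and Cdx1 was lower (-0.76), with a sign that turned on the deposited values (0.20).

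Germline genes were lower in WD44. Of 20 genes of the germline and two-cell-like list tested, 12 were called lower and 3 higher. At 2-fold or more 6 were lower (30.0% of the list) and 0 higher, and the median was -0.66. Their count of 6 was 2 on the deposited values.

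Dazl, an RNA-binding protein that germ cells need, was at 7.44 and 7.28 in WD44, against 10.23 and 10.21 in E14. The WD44 values lay at the array median and the E14 values far above it, a difference of -2.86 ± 0.08 (SE), or 7.27-fold lower in WD44 (limma, adjusted p = 3.62e-07). Stk31, a testis kinase with a Tudor domain, was at 6.40 and 6.24 in WD44, against 8.79 and 8.72 in E14 (difference -2.44 ± 0.08, adjusted p = 6.59e-07). Tex14, a protein of the bridges between germ cells, was at 7.59 and 7.30 in WD44, against 9.04 and 9.01 in E14 (difference -1.57). In each of these genes all WD44 arrays were below all E14 arrays. Kit, the receptor that germ cells need to migrate and survive, was at 9.51 and 9.39 in WD44, against 11 on both E14 arrays (difference -1.55).

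Hormad1, which organises the meiotic chromosome axis, has 2 probesets. The brighter was at 8.13 and 8.07 in WD44, against 9.61 and 9.36 in E14 (difference -1.39, adjusted p = 1.34e-05). The other differed by more, at 6.09 and 5.77 in WD44 and 9.38 and 9.14 in E14 (difference -3.33), so its size is uncertain though both were lower. Tex19.1, which restrains retrotransposons in germ cells, differed by -1.0, and by 0.02 on the deposited values. Of the genes that were called higher, Mael, a piRNA pathway protein, differed by 0.88. Among genes outside the lists, Sohlh2, a bHLH factor of early germ cells, was at 7.61 and 7.48 in WD44, against 10.29 and 10.41 in E14 (difference -2.80 ± 0.08, adjusted p = 4.62e-07).

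Promoters of these genes are shown because many germline promoters are rich in CpG and are known to be kept silent outside the germline by DNA methylation and by a Polycomb complex with the factors E2F6, Mga and Max, which bind E2F and E-box sites. The windows run from 250 bases before to 50 bases after the annotated start, from RefSeq on GRCm38.p6, 5′ to 3′ on the gene's strand. Capitals mark the E-box CACGTG and the E2F6-like motif GCGGGAA on either strand. The Dazl window is chr17:50293571-50293870 (minus strand), the Hormad1 window chr3:95559427-95559726 (plus strand) and the Stag3 window chr5:138280259-138280558 (plus strand); Stag3 encodes a meiotic cohesin subunit that was 0.90 lower in WD44.
Dazl: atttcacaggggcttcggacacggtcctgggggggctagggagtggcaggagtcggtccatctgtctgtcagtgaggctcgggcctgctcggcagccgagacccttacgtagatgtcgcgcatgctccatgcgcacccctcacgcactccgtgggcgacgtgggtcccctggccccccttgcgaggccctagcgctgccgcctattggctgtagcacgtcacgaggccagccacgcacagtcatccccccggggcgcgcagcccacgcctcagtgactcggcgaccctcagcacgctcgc
Hormad1: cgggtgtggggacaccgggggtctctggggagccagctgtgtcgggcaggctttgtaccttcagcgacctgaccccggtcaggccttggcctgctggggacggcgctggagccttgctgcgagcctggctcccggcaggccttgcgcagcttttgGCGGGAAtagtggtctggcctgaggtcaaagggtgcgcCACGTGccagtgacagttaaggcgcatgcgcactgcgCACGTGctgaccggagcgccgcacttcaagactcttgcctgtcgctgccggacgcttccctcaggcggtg
Stag3: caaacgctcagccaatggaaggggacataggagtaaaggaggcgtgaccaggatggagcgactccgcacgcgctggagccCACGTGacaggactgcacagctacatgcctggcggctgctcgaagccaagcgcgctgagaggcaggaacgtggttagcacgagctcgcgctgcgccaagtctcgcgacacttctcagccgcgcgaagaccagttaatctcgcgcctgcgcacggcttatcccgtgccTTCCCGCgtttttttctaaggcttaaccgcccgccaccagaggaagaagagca
The Dazl window holds neither motif and 28 CpG. That of Hormad1 holds 3 matches, which begin 95, 57 and 20 bases before the start, and 24 CpG. The Stag3 window holds 2 matches, 170 and 3 bases before the start, and 30 CpG. The median was 20 CpG over the 20 germline genes and 7 over first windows of 27025 genes. CACGTG lay in the windows of 10 of the 20, against 7.24% of all windows, and GCGGGAA in 6 of the 20, against 4.66%. By direction, CACGTG lay in 5 of 12 genes called lower, 2 of 3 called higher and 3 of 5 not called. GCGGGAA lay in 4 of 12 called lower, 0 of 3 called higher and 2 of 5 not called. These matches are a description of the windows and were not tested as sites.

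Imprinted genes differed in both directions and from gene to gene within a domain. Since 33.8% of all autosomal genes were called higher and 31% lower, mixed calls are not read as particular to imprinted genes. At 2-fold or more, 5.96% of all autosomal genes were higher and 4.2% lower. Of 33 genes tested that were listed as maternally expressed, 15 were called higher and 11 lower (7 and 2 at 2-fold or more, median 0.15). Of 30 listed as paternally expressed, 13 were called higher and 10 lower (6 and 4 at 2-fold or more, median 0.11). The parental copy was taken from the lists and was not checked, here and in later counts. It is in doubt for Ddc (difference -2.56), listed as maternally expressed, and for Ano1 (-0.66), listed as paternally expressed. The split by parental copy is therefore only that of the lists. These arrays do not tell the parental copies apart.

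On chromosome 2, 4 of 6 imprinted genes tested were higher and 0 lower. Nnat, a small membrane proteolipid made in neural tissue and read from the paternal copy, was at 11.05 and 11.13 in WD44, against 7.24 and 7.34 in E14. The E14 values were at the array median, and the difference was 3.79 ± 0.07 (SE), or 13.9-fold (limma, adjusted p = 1.7e-07). Blcap, the gene whose intron holds Nnat, was at 8.70 and 8.63 in WD44, against 8.44 and 8.59 in E14, and was not called. Gatm, an enzyme of creatine synthesis, was 1.71 higher and H13, a signal peptide peptidase, 1.34 higher. Mcts2, a retrogene inside H13, was not called (-0.08).

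On chromosome 6, 3 of 10 genes were higher and 5 lower. Peg10 and Sgce are neighbouring paternally expressed genes, a retrotransposon-derived gene and epsilon-sarcoglycan. Sgce was at 6.53 and 6.86 in WD44, against 9.29 and 9.31 in E14. Peg10 was at 11.38 and 11.26 in WD44, against 13.28 and 13.10 in E14. Both were lower on both WD44 arrays, by -2.60 ± 0.11 (adjusted p = 1.71e-06) and -1.87 ± 0.09 (adjusted p = 2.52e-06). Of the maternally expressed genes near them, Calcr, the calcitonin receptor, was at 7.90 and 8.06 in WD44, against 5.87 and 5.91 in E14 (difference 2.09). Asb4 was lower (-0.97) and Tfpi2 was not called (0.17). Mest, a paternally expressed hydrolase gene elsewhere on the chromosome, was 0.79 higher.

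Chromosome 7 carried 25 of the imprinted genes tested, of which 13 were called higher and 8 lower. Peg3, a paternally expressed zinc finger gene, was at 12.22 and 12.29 in WD44, against 10.52 and 10.46 in E14 (difference 1.76 ± 0.07, adjusted p = 1.34e-06). Usp29, which starts beside it on the opposite strand and is also read from the paternal copy, was at 6.27 and 6.24 in WD44, against 5.69 and 5.86 in E14 (difference 0.48, adjusted p = 0.00127). The WD44 arrays were the high ones for both. The window of Peg3 (RefSeq, GRCm38.p6, chr7:6730370-6730669, minus strand) is shown as the piece of sequence that both genes share. Capitals mark the 163 bases between the 2 annotated starts.
Peg3: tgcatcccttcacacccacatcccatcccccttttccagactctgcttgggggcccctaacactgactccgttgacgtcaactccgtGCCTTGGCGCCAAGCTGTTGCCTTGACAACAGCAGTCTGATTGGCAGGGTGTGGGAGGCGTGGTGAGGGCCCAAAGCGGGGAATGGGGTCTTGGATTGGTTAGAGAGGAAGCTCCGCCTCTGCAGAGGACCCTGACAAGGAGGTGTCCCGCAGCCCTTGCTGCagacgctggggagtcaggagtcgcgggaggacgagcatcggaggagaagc
Magel2, a paternally expressed gene of the region that matches the human Prader-Willi locus, was at 8.03 and 8.01 in WD44, against 6.14 and 6.26 in E14 (difference 1.82 ± 0.07, adjusted p = 1.49e-06). Its neighbour Ndn was at 9.76 and 9.94 in WD44, against 8.85 and 8.72 in E14 (difference 1.06). Mkrn3 (0.31) and Peg12 (-0.06), of the same region, were not called. Atp10a, a phospholipid flippase, was 1.49 higher, and the growth factor Igf2 1.3 higher. Cdkn1c, a cyclin-dependent kinase inhibitor read from the maternal copy, was 0.75 higher, while Tspan32 (-1.14), Ascl2 (-0.75) and Kcnq1 (-0.33) of the same cluster were lower.

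In the Dlk1 to Dio3 cluster of chromosome 12, Meg3, Rian and Dlk1 were higher and Dio3 was lower. Meg3, a maternally expressed long noncoding RNA that is often silenced in cultured ES cells, was at 11.16 and 11.01 in WD44, against 9.47 and 9.27 in E14 (difference 1.72 ± 0.09, adjusted p = 4.91e-06). Rian, which is transcribed downstream of it, was 0.42 higher. Of the paternally expressed genes, Dlk1, a Notch-like membrane protein, was at 9.42 and 9.69 in WD44, against 8.39 and 8.34 in E14 (difference 1.19). Dio3, a deiodinase that inactivates thyroid hormone, was at 6.57 and 6.52 in WD44, against 7.93 and 8.29 in E14 (difference -1.56, adjusted p = 2.14e-05). Rtl1, between them, was not called (0.06). On chromosome 11, the adaptor Grb10 was 1.10 higher, while its neighbours Ddc and Cobl were lower. Ddc, an enzyme of dopamine and serotonin synthesis, was at 7.14 and 7.33 in WD44, against 9.71 and 9.88 in E14 (difference -2.56 ± 0.09, adjusted p = 9.64e-07). The zinc finger gene Plagl1 of chromosome 10 had a difference of -1.02. Igf2r, on chromosome 17, was at 10.12 and 10.19 in WD44, against 10.15 and 10.22 in E14, and was not called.

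**Figure D3:**
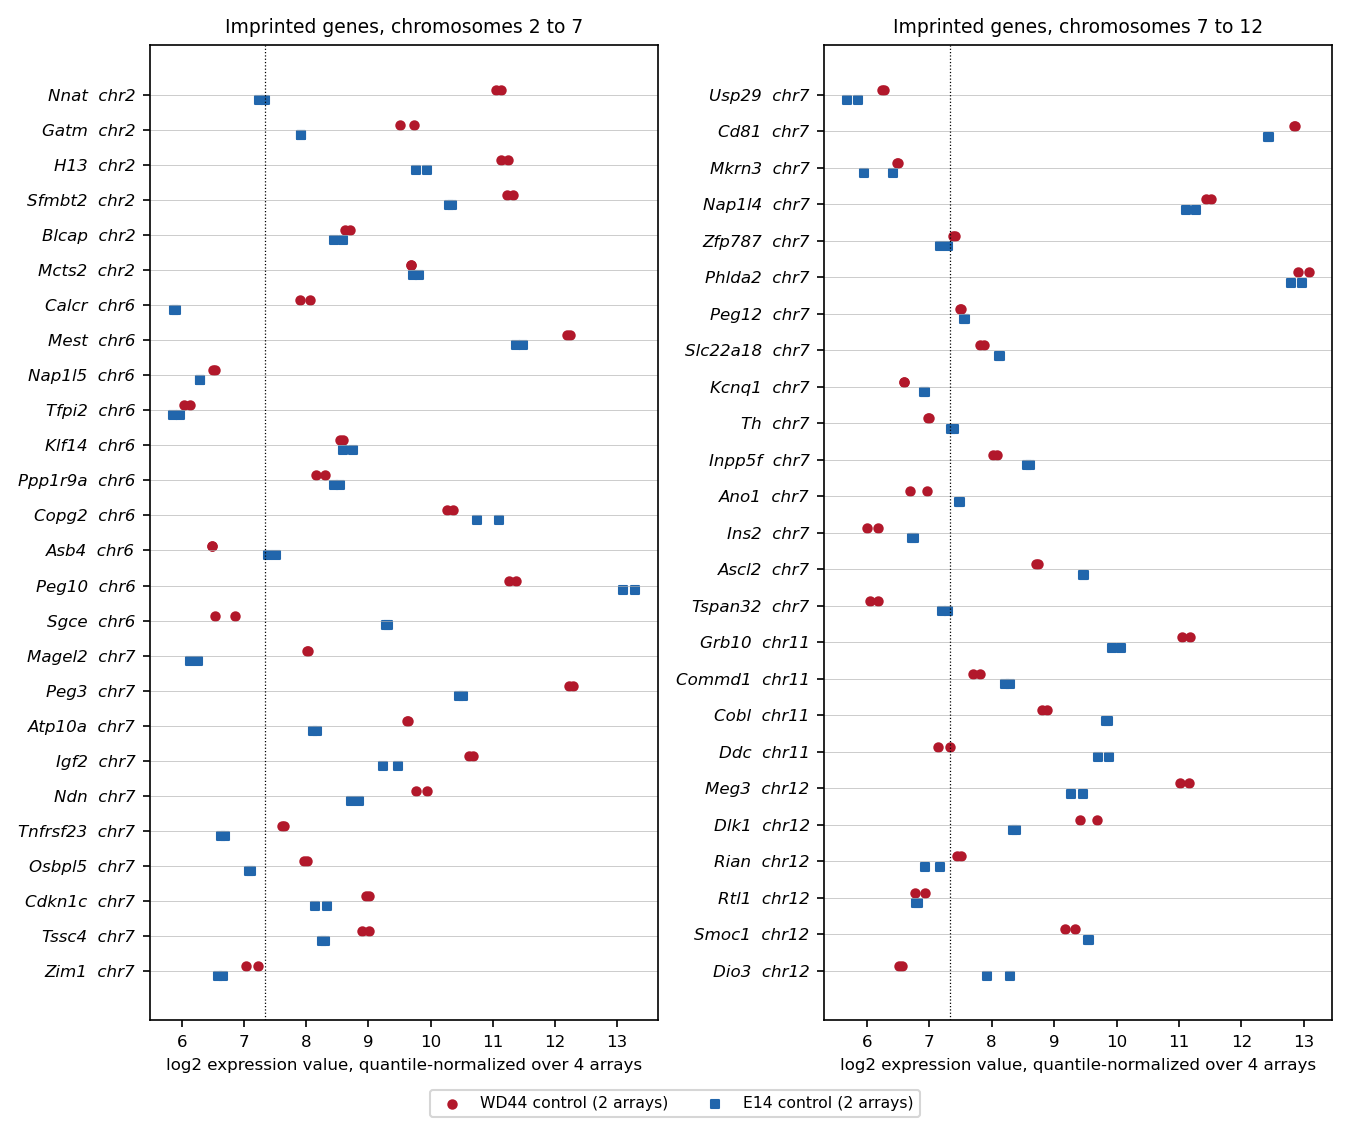
Levels of the imprinted genes tested on chromosomes 2, 6, 7, 11 and 12 on each control array (x axis, log2 value after joint quantile normalization; red circles WD44, blue squares E14; dotted line, array median of 7.33), ordered by chromosome and then by difference. Nnat and Magel2 stand higher in WD44, Sgce, Peg10 and Ddc stand lower, and neighbours such as Blcap, Rtl1 and Peg12 lie together.

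Genes of antigen presentation were mixed. Class I calls went both ways, and the class II and antigen loading members past 2-fold were all higher in WD44. Class I molecules show peptides of the cell's own proteins, which are cut by the immunoproteasome, carried by the Tap transporter and loaded with the help of Tapbp, and ES cells are known to hold them at low levels. Of 29 class I symbols, 12 had no probeset of their own, among them H2-K1 and H2-D1, and 12 were tested. Of these, 5 were called higher and 3 lower (1 each at 2-fold or more), against 33.8% called higher and 31% lower of all autosomal genes. H2-Q4, a nonclassical class I gene, was at 8.48 and 8.53 in WD44, against 6.93 and 7.04 in E14 (difference 1.52 ± 0.07, adjusted p = 3.23e-06). H2-M5, another gene of the complex, was at 8.69 and 8.71 in WD44, against a mean of 10.14 over the 2 E14 arrays (difference -1.45 ± 0.07, adjusted p = 3.59e-06). Neither gene's arrays overlapped. B2m, the light chain common to class I molecules, was at 11.23 and 11.30 in WD44, against 10.44 and 10.30 in E14 (difference 0.90, adjusted p = 4.59e-05). H2-T24 (0.51) and H2-M3 (0.44) were called higher, and H2-M10.2 was called lower (-0.48), with a sign that turned on the deposited values (0.67). These last calls were lost when the first E14 array was left out (adjusted p = 0.094, 0.0635 and 0.0856).

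Of 26 genes of class II and antigen loading, 12 were called higher and 4 lower, with 4 higher and 0 lower at 2-fold or more (median 0.17). Psmb8, a catalytic subunit of the immunoproteasome, was at 7.06 and 6.98 in WD44, against 5.62 and 5.60 in E14 (difference 1.41 ± 0.07, adjusted p = 3.26e-06). Tapbp (tapasin) was at 10.34 on both WD44 arrays, against 9.08 and 8.90 in E14 (difference 1.34 ± 0.08, adjusted p = 8.12e-06). Tap1, a subunit of the peptide transporter, was at 8.24 and 8.15 in WD44, against 7.16 and 7.14 in E14 (difference 1.05 ± 0.07, adjusted p = 1.33e-05). The WD44 arrays were above the E14 arrays in all of these genes. Psmb9, which starts head to head with Tap1, was at 8.37 and 8.24 in WD44, against 7.79 and 7.61 in E14 (difference 0.61, adjusted p = 0.000631). The RefSeq window of Tap1 (GRCm38.p6, chr17:34187306-34187605, plus strand) is shown since it spans the start of both genes. Capitals mark the 225 bases between them.
Tap1: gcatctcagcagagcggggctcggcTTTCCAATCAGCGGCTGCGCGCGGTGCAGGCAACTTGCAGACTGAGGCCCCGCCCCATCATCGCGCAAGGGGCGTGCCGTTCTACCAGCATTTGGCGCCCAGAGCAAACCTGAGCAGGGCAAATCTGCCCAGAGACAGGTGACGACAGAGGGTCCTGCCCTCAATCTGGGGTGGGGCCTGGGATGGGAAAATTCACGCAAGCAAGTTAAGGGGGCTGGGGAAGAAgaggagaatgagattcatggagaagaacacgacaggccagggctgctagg
Among the others, Tap2 (0.53), the peptide trimming enzyme Erap1 (0.88), Psmb10 (0.53) and the proteasome activator Psme2 (0.77) were higher. The class II chaperone gene H2-DMa was higher by 1.01, while the class II invariant chain gene Cd74 (-0.20) and the class II transactivator gene Ciita (-0.36) were lower. Nlrc5, the class I transactivator, was at 9.55 and 9.76 in WD44, against 9.68 and 9.63 in E14, and was not called.

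In the interferon response list, 13 of 25 genes were called higher and 5 lower (6 and 1 at 2-fold or more, median 0.31). Irgm1, an interferon-inducible GTPase that acts against intracellular bacteria, was at 9.23 and 9.44 in WD44, against 6.38 and 6.68 in E14. The lines were more than 2 log2 units apart on every pair of arrays, with a difference of 2.81 ± 0.12 (SE; limma, adjusted p = 1.69e-06). The oligoadenylate synthetase-like gene Oasl2 was at 8.80 and 9.04 in WD44, against 6.98 and 6.96 in E14 (difference 1.95). The GTPase Gbp3 was at 7.03 and 7.00 in WD44, against 5.32 and 5.40 in E14 (difference 1.66). Irf2 (1.31), the lysosomal thiol reductase Ifi30 (1.27) and the receptor chain Ifngr2 (1.26) were also higher. Oas1a was at 6.96 and 6.70 in WD44, against 8.08 and 8.28 in E14, and was the only member lower by 2-fold or more (difference -1.35, adjusted p = 3e-05).

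The Irgm1 window (RefSeq, GRCm38.p6, chr11:48871371-48871670, minus strand) is shown for GAAA repeats of the kind that interferon-activated factors bind. Capitals mark the motif searched on both strands, which is GAAA, any 2 bases and GAAA.
Irgm1: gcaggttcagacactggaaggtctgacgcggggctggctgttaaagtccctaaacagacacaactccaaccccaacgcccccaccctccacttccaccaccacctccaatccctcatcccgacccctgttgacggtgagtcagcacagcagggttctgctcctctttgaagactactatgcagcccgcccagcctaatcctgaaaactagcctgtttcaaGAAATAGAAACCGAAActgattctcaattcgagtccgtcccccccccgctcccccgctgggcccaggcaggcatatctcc
It holds 2 overlapping matches, which begin 30 and 24 bases before the start. The motif lay in 12 of 24 list windows, against 3.49% of all windows. By direction it lay in 6 of 13 genes called higher, 3 of 4 called lower and 3 of 7 not called.

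Matrix and adhesion genes gave the list with the largest share of higher genes. Of 39 integrins, proteases and cadherins tested, 32 were called higher and 1 lower in WD44. At 2-fold or more 17 were higher (43.6% of the list) and 0 lower, and the median was 0.85. Itga3, an integrin chain that binds laminin, was at 11.30 and 11.16 in WD44, against 8.13 and 8.05 in E14. That difference was 3.14 ± 0.08 (SE), or 8.79-fold (limma, adjusted p = 2.77e-07), with the lines about 3 log2 units apart on all arrays. Itgb8, which activates latent Tgf-beta, was at 7.54 and 7.70 in WD44, against 5.46 and 5.44 in E14 (difference 2.17). Itgb4 (1.12) and Itgb5 (1.10) passed 2-fold, and Itgb1, the common chain, was called at 0.59. Among proteases, Mmp25, a membrane-anchored metalloproteinase, was at 9.73 and 9.93 in WD44, against 7.02 and 6.92 in E14 (difference 2.86 ± 0.09, adjusted p = 5.72e-07). Adamts1, which cleaves proteoglycans, was at 8.36 and 8.24 in WD44, against 6.18 and 6.16 in E14 (difference 2.13). The collagenases and gelatinases Mmp2 (1.76), Mmp14 (1.73) and Mmp9 (1.57) were higher, and so were their inhibitors Timp2 (1.89) and Timp3 (1.68). Epcam, an epithelial adhesion molecule, was at 11.07 and 11.22 in WD44, against 9.27 and 9.40 in E14 (difference 1.81). Cdh1 (E-cadherin), the adhesion molecule of ES colonies, was at 12.52 and 12.53 in WD44, against 12.44 and 12.48 in E14, and was not called.

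Of 42 basement membrane and matricellular genes, 19 were called higher and 9 lower (9 and 0 at 2-fold or more, median 0.12). Thbs1, a thrombospondin that activates Tgf-beta, was at 11.69 and 11.73 in WD44, against 7.73 on both E14 arrays. Its difference of 3.98 ± 0.07 (SE) was 15.8-fold (limma, adjusted p = 1.7e-07). The elastic-fibre protein Efemp1 was at 8.90 and 9.07 in WD44, against 6.10 and 6.28 in E14 (difference 2.80). Ccn1, a matricellular protein, was at 12.01 on both WD44 arrays, against 9.65 and 9.59 in E14 (difference 2.39 ± 0.07, adjusted p = 4.46e-07). All WD44 arrays were above all E14 arrays for these genes. Tnc (1.82), the heparan sulphate proteoglycan Hspg2 (1.43) and Ltbp4 (1.34) followed. Fibronectin (Fn1) was lower, at 12.76 and 12.74 in WD44, against 13.31 and 13.20 in E14 (difference -0.50). The laminin chain Lamc1 was lower too (-0.60), and Sparc, a collagen-binding protein, was not called (0.07).

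Of 36 collagens and their enzymes, 20 were called higher and 5 lower, and 3 were higher by 2-fold or more (median 0.26). Lox, which crosslinks collagen and elastin, was at 7.96 and 7.48 in WD44, against 5.94 and 6.11 in E14 (difference 1.70 ± 0.15, adjusted p = 4.86e-05). Col12a1 was at 7.27 and 7.14 in WD44, against 5.61 and 5.76 in E14 (difference 1.52), and Col18a1, a basement membrane collagen, at 10.61 and 10.59 in WD44, against 9.53 and 9.35 in E14 (difference 1.16). Of these, only Col18a1 had a mean of at least 7 over the arrays. The lysyl oxidase-like gene Loxl4 (0.94), P4ha2 (0.84) and Plod3 (0.83), which modify collagen, were called under 2-fold, Loxl4 not when either WD44 array was left out (adjusted p = 0.0739 and 0.0571).

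Fibroblast markers are given beside these matrix results, since feeders make matrix. Of 17 tested, 12 were called higher and 2 lower in WD44 (4 and 1 at 2-fold or more, median 0.45). Tagln, an actin-binding protein of smooth muscle and fibroblasts, was at 10.90 and 10.70 in WD44, against 6.30 and 6.62 in E14 (difference 4.34 ± 0.12, adjusted p = 3.76e-07). Acta2, smooth muscle actin, was at 11.11 and 11.05 in WD44, against 7.39 and 7.72 in E14 (difference 3.52 ± 0.11, adjusted p = 5.75e-07). Dcn, a small proteoglycan, was 2.32 higher; it is also counted among the imprinted and matrix genes, and Mmp2 among the proteases. The defining fibroblast collagens differed less. Col1a1 was at 8.46 and 8.59 in WD44, against 7.96 and 7.89 in E14 (difference 0.60). Col1a2 differed by 0.26, a call that was lost without either WD44 array (adjusted p = 0.0503 and 0.0674) or the first E14 array (0.0594), and Col3a1, at 7.03 and 7.16 in WD44 and 7.28 and 7.18 in E14, was not called (-0.14, and 0.99 on the deposited values). Thy1 was 0.35 and Prrx1 0.91 higher, while Pdgfrb, the receptor of fibroblasts and pericytes, was at 6.68 and 6.87 in WD44, against 8.48 and 8.57 in E14 (difference -1.75). In bulk RNA, more cells of a type and more RNA per cell cannot be told apart, and the part of feeder cells in the matrix differences was not tested.

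The largest differences were taken over all autosomal genes with 1 symbol. Sema6a, a transmembrane semaphorin, was at 11.85 and 12.16 in WD44, against 6.88 and 6.86 in E14, and gave the largest difference of all (5.13 ± 0.10, or 35.1-fold; limma, adjusted p = 1.7e-07). Fermt1 (kindlin-1), which activates integrins, was at 10.08 and 10.18 in WD44, against 5.61 and 5.65 in E14 (difference 4.50). Cldn6, a claudin of tight junctions, was at 12.52 and 12.58 in WD44, against 8.38 and 8.50 in E14 (difference 4.11). The ectonucleotidase Enpp3 (4.05), the kappa-casein gene Csn3 (4.04), the carbonic anhydrase Car2 (3.92), the epithelial splicing regulator Esrp1 (3.83) and Tmem54 (3.72) followed, with no overlap of arrays. In the other direction, Apod, a lipocalin, was at 5.95 and 5.81 in WD44, against 9.75 and 9.94 in E14 (difference -3.97 ± 0.09, adjusted p = 2.01e-07). Klb (beta-klotho), a co-receptor for endocrine Fgfs, was at 5.97 and 5.87 in WD44, against 9.80 and 9.88 in E14 (difference -3.93). For both, the WD44 values lay near the lower quartile of the array (5.87). The lens crystallin gene Crygd (-3.30), Gm14403 (-3.27), the Ets factor Spic (-3.07), Gm11545 (-2.94), Accsl (-2.94), the chemokine Ccl9 (-2.90) and the long noncoding RNA Platr25 (-2.86) were also among the 12 lowest. Iqca differed by -3.73 on its brighter probeset and by 0.19 on another, so its difference is uncertain.

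The same contrast was then read in 4 other arrays, 2 of WD44 and 2 of E14, treated with siRNAs against MOF and normalized together apart from the controls. They share the lines and their sets of normalization with the controls, but no array. Over all autosomal genes, 5.89% were higher and 4.86% lower by 2-fold or more there, with 743 genes higher and 542 lower in both sets. Of the 407 members, 403 could be tested in those arrays, and 84 were higher and 26 lower by 2-fold or more. In both sets, 73 members were higher and 21 lower. All 103 of the 104 members at 2-fold or more that were tested there had the same sign, while Fabp7 fell under the level filter. The same share over all autosomal genes past 2-fold was not counted, so this is not read as particular to the members. The members that missed 2-fold there were Dppa3 (0.65), Grb10 (0.93), H2-DMa (0.33), Id3 (0.89), Pcdh1 (0.86), Hnf4a (-0.999), Meis2 (-0.91), Plagl1 (-0.92) and Tex19.1 (-0.96). The difference of Car4 was 4.57 with MOF siRNA, that of Dazl -2.81, that of Nnat 3.90 and that of Tbx3 -1.65. Dnmt3a (0.17, adjusted p = 0.0911) was not called there, and Pou5f1, not called in the controls, was called lower (-0.22, adjusted p = 0.0178). Psme2, called in the controls, was not called there (0.18, adjusted p = 0.062), and the difference between the sets was not called either (-0.59, adjusted p = 0.13). A test of the difference between the sets over 18162 probesets called 12 (0.0661%), with 2563 at an unadjusted p under 0.05. Among the members it called only Ccn1, whose line difference was 3.16 with MOF siRNA and 2.39 in the controls.

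**Figure D4:**
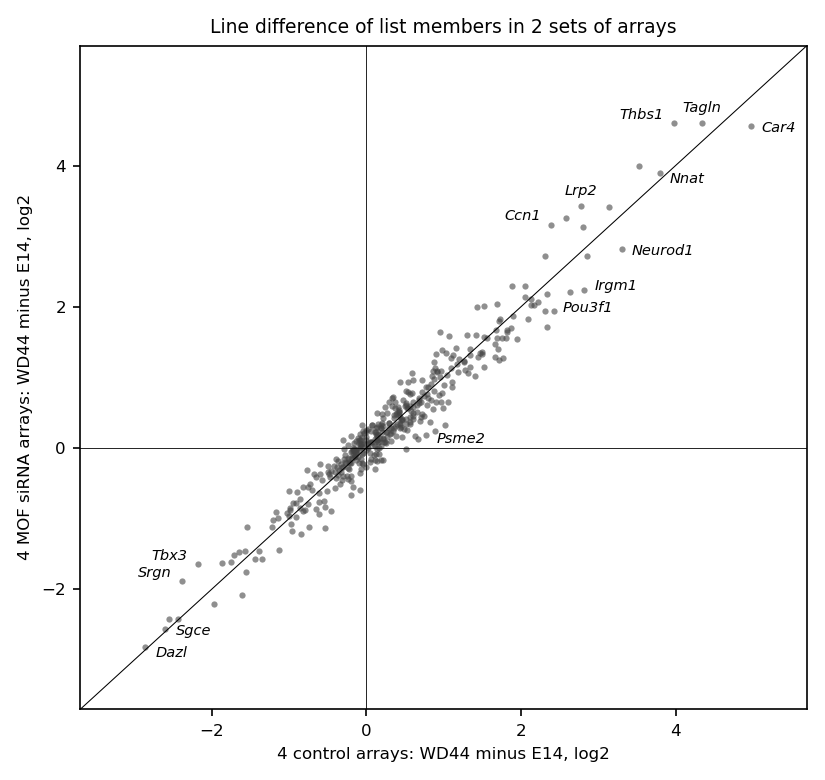
Line difference of the list members in the 4 control arrays (x axis) and in the 4 MOF siRNA arrays (y axis), both as WD44 minus E14 on the log2 scale; each point is a gene and the diagonal marks equal differences. Car4, Tagln and Thbs1 lie at the upper right, Dazl and Sgce at the lower left, and Psme2 lies near 0 on the y axis.

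The female ES line PGK12.1 was set beside them by the rank of each gene within its own array, which does not need a common scale. It was derived from blastocysts of a 129 dam and an F1 sire (129 X PGK), and its 8 control arrays took 1 or 2 rounds of control RNAi. Of 892 genes higher in WD44 by 2-fold or more, the median PGK12.1 percentile was nearer that of E14 for 659 and nearer that of WD44 for 233. Of 628 lower genes it was nearer E14 for 417 and nearer WD44 for 211. Car4 lay at percentile 95.3 in WD44 and 45.2 in E14, and at 28.0 to 72.5 in PGK12.1 (median 32.8). Otx2 was at percentile 85.4 in WD44 and 59.7 in E14, with a PGK12.1 median of 79.9, nearer WD44. Dazl was at percentile 50.4 in WD44 and 83.4 in E14, with a PGK12.1 median of 73.1. Among the primed genes 8 of the 10 that were higher had PGK12.1 nearer E14, and among the germline genes 5 of the 6 that were lower. For the integrin, protease and cadherin list these were 14 of 17. Genes on which E14 stood apart from both other lines included Klb, at percentile 25.9 in WD44 and 79.7 in E14, with a PGK12.1 median of 35.8, and Car2, at 92.6 in WD44 and 53.2 in E14, with a median of 93.3.

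**Figure D5:**
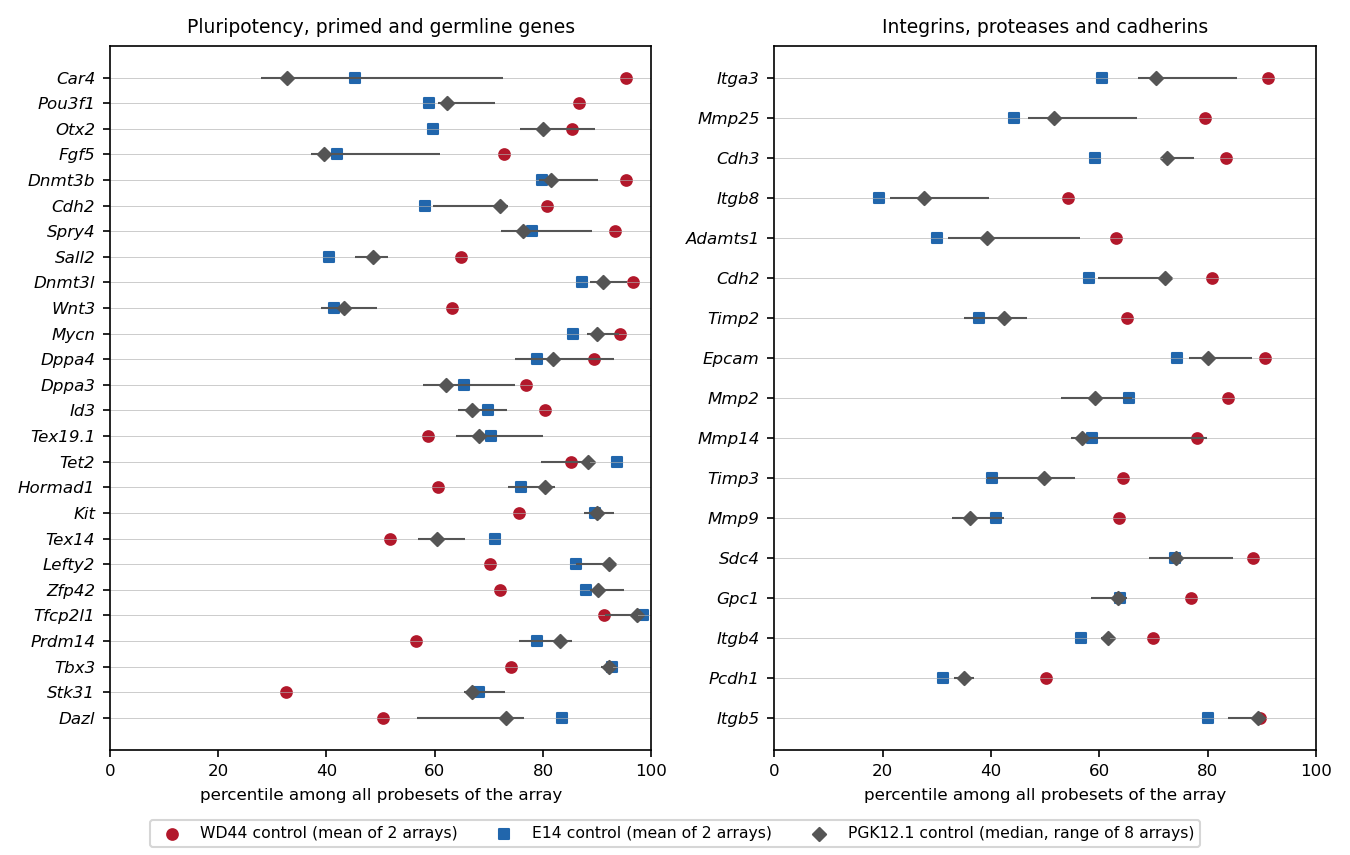
Percentile of each gene among all probesets of its array (x axis) in WD44 controls (red circles, mean of 2 arrays), E14 controls (blue squares, mean of 2 arrays) and PGK12.1 controls (grey diamonds, median; grey lines, range of 8 arrays), for the members at 2-fold or more of the pluripotency, primed and germline lists (left) and of the integrin, protease and cadherin list (right). The diamonds of Tbx3, Prdm14 and Stk31 lie with E14, while that of Otx2 lies near WD44.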

How the data were processed

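The deposited log2 values cover 35556 probesets of an Affymetrix mouse gene array and were made by the authors with Affymetrix Expression Console and RMA, per the submitters' processing notes. Neither the versions nor the genome build is given in the sources used here. The medians in the report show that the WD44 and E14 arrays had not been brought to 1 scale. The control arrays were quantile-normalized over all probesets, and probesets with a gene symbol and a mean of at least 6 were fitted with limma 3.58.1 in R 4.3.3 (lmFit, eBayes, two-sided, 2 residual degrees of freedom). A gene was called when its Benjamini-Hochberg adjusted p, over all probesets tested, was under 0.05, and as 2-fold when its log2 difference was also at least 1 in size. Adjusted p-values come from this limma fit throughout.

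Probesets were named through the platform annotation, updated by gene identifier through RefSeq genes: 21789 had 1 symbol, 1621 several and 12146 none, and 21698 matched RefSeq. Each gene was read from 1 probeset, that with the highest mean. Probe sequences were not used here, so whether a probe covers a base that differs between BL6 and Cast was not checked. As a description, 8.85% of 7907 probesets without a symbol and a mean of at least 6 differed by 2-fold or more, against 10.3% of those with a symbol. Promoter windows of 300 bases were found for 296 of the 407 genes. Genes were named by rule: the 12 largest differences each way, up to 6 called members per list by size, the core pluripotency genes and 4 fibroblast markers. Other members were named after their values were seen, as the remaining members past 2-fold, as neighbours of a named gene or as known regulators of the list. Members and lists were chosen with earlier results of these data known. p-values measure the spread between RNAi experiments within a line. Sex-linked genes were left out. The number of arrays limits the precision.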

Additional observations from a re-analysis of the deposited data

Results flagged for a closer look

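Ccn1, a matricellular protein gene, was singled out because its line difference was not the same in the 2 sets of arrays. The WD44 minus E14 difference was larger by 0.747 ± 0.095 (SE) on the log2 scale in the MOF siRNA arrays than in the control arrays (limma interaction over 8 arrays, adjusted p = 0.0415). Both WD44 arrays were above both E14 arrays in each set. With the replicate number as a block, no probeset passed that test.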

How the results depend on the processing

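The common scale moved most of the counts of members past 2-fold. On the deposited values 16166 probesets were called higher and 617 lower, and 8517 and 117 at 2-fold or more. Members higher by 2-fold or more were then 10 naive, 19 primed, 16 primitive endoderm, 10 trophectoderm, 11 neuroectoderm, 17 maternally and 18 paternally expressed, 15 antigen loading, 17 interferon, 27 collagen, 26 basement membrane, 34 integrin and 13 fibroblast genes. Lower ones were 3 naive, 2 germline and 2 paternally expressed. The sign turned for Cdx1 (0.20), Col3a1 (0.99), Esrrb (0.07), H2-M10.2 (0.67), Klf4 (0.18), Pou5f1 (0.62), Sox2 (0.48) and Tex19.1 (0.02); this setting keeps the offset of 0.96 between the lines. Median centring gave 1545 lower probesets at 2-fold or more, 1 higher and 11 lower naive genes and 3 higher paternally expressed genes. Against a 1.5-fold limit (treat), 1450 probesets were called higher and 1202 lower. A mean of at least 7 left 1 collagen gene higher by 2-fold or more, since fewer genes are tested. It also lowered the higher counts to 4 interferon, 4 neuroectoderm, 5 maternally expressed and 3 antigen loading genes. Those of the fibroblast, basement membrane and integrin lists fell to 3, 8 and 15. The mean over probesets left 2 higher naive genes. Leaving out each array in turn gave 4036 to 4500 higher and 4008 to 4109 lower calls. Calls were lost by 14 of 119 named genes with treat, by 2 to 5 when an array was left out and by 1 (Col1a2) with all 27 arrays in the fit. On the deposited values the calls of Dab2, Hnf4a, Oas1a, Esrrb, Klf4 and Tex19.1 were lost and Pou5f1, Sox2 and Col3a1 were called higher, while median centring added calls of Pou5f1 (-0.51) and Sox2 (-0.64). All 119 kept direction and call with cyclic loess, percentile ranks and all 8 WD44 and E14 arrays in the fit. The replicate numbers share only a number (deviations of WD44 1 and E14 1 correlated at 0.0063). With the replicate number as a block, 5992 probesets were higher and 5774 lower and 119 named genes kept their call, while the test of the difference between control and MOF arrays called 0 in place of 12. With 2 arrays a line, differences specific to a line, a strain or a normalization set have no further check.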
